A study of Nannochloropsis oceanica with 15 samples.

Results

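The late step of a phosphate deprivation time course in the unicellular marine alga Nannochloropsis oceanica was examined by setting the libraries of 48 h without phosphate against those of 24 h. These are 6 of the 15 libraries of the series, 3 at each time, and they were chosen by the time in their labels. All 10434 genes of the count table were considered, of which 9321 had enough counts to be tested. Strain IMET1, an oil-storing alga kept in many laboratories for work on lipids, was grown in modified f/2 medium, a seawater medium, under continuous light. Cells were harvested in linear growth, washed in seawater and moved to f/2 medium without phosphate. The 48 h group and the 24 h group share strain, medium and light, and by their labels differ only in the time since the transfer. The further libraries were taken at 0, 6 and 12 h. All 15 carry the label of phosphate deprivation. Cultures moved to complete f/2 medium are mentioned in the protocol and are not analysed here, so time since transfer, culture age and loss of phosphate cannot be told apart. Cultures were set up in triplicate, but nothing says whether the letters a, b and c mark the same culture at each time, so p-values measure the spread between these samples, which may be technical.

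Phosphate is a building block of nucleic acids, phospholipids and ATP, and ribosomal RNA is one of its large stores in a cell. Algae and plants that run out of phosphate are known to make more high-affinity phosphate transporters and secreted phosphatases, to replace phospholipids with sulfolipids, galactolipids or betaine lipids, and to store carbon as oil. SPX-domain proteins, known from yeast and plants, bind inositol pyrophosphates and report the phosphate status of the cell. The gene descriptions used here come from the deposited table and rest on likeness to genes of other species, so the roles given below are background from those species.

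Between 24 h and 48 h, 1151 genes rose and 969 fell, which is 12.3% and 10.4% of the tested genes and 22.7% together, at an adjusted p under 0.05 in the edgeR quasi-likelihood test with Benjamini-Hochberg adjustment. Counts given below for gene lists are to be read beside these shares of all tested genes. The rises were larger than the falls. The median log2 fold change was 0.72 among the risers, -0.41 among the fallers and -0.01 over all tested genes, and 323 genes rose and 116 fell by at least 2-fold, 4.71% of those tested together. All 3 libraries of 48 h lay on one side of all 3 of 24 h for 2043 of the 2120 called genes and for 4039 genes, or 43.3%, of all tested. The deposited descriptions were blank for 461 risers (40.1%) and 217 fallers (22.4%), beside 3229 of all tested genes (34.6%). Levels below are CPM, the counts scaled to the effective library size of edgeR and given in the order a, b, c. They are not divided by gene length and are therefore compared only within a gene or a sum of genes. In bulk RNA, fewer cells of a kind and less RNA per cell cannot be told apart.

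**Figure D1:**
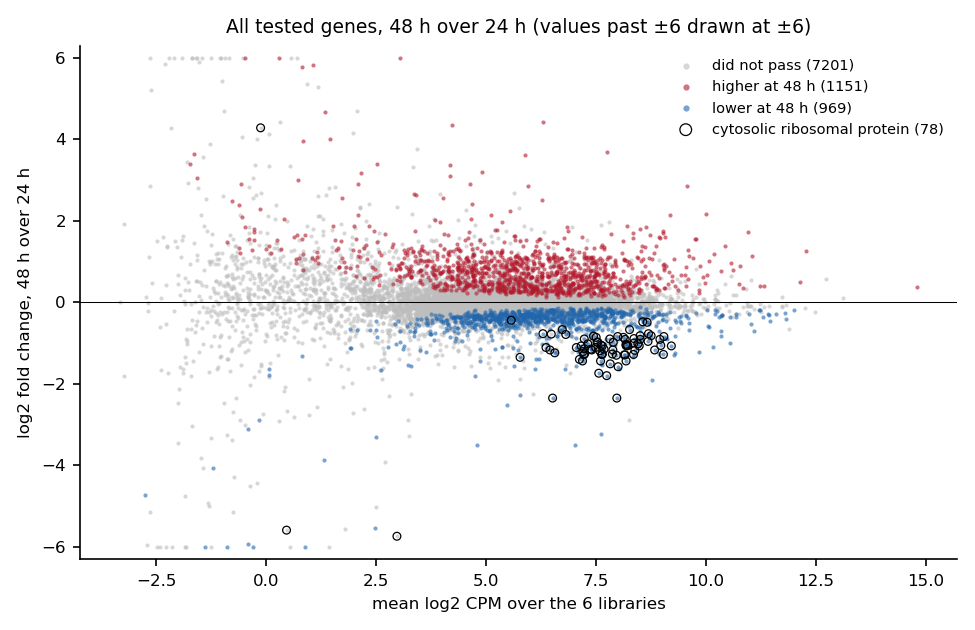
Log2 fold change of 48 h over 24 h (vertical axis) against the mean log2 CPM of the 6 libraries (horizontal axis) for the 9321 tested genes. Red points are the 1151 genes that rose, blue points the 969 that fell, grey points the 7201 that did not pass, and circles the 78 tested cytosolic ribosomal proteins, whose median is -1.07 and whose values run from -5.74 to 4.28.

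The count totals were between 17674092 and 20576407 in the 48 h group and between 18135488 and 22287807 in the 24 h group. At this depth a count of 0 allows up to 0.145 to 0.176 CPM at 48 h and 0.135 to 0.159 CPM at 24 h, limits that cover counting error only. The correlation of log2 CPM across genes was 0.915 to 0.92 within 48 h, 0.921 to 0.93 within 24 h and 0.893 to 0.914 between the times. Library b of 48 h stood closest to 24 h, with a mean correlation of 0.910 against 0.897 for a and 0.903 for c, and it was the lowest of the 3 at 48 h for 764 of the 1151 risers. Library c of 24 h was the highest of its 3 for 677 of them. Without library b of 48 h 1199 genes rose and 886 fell, and without library c of 24 h 1002 rose and 740 fell.

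**Figure D2:**
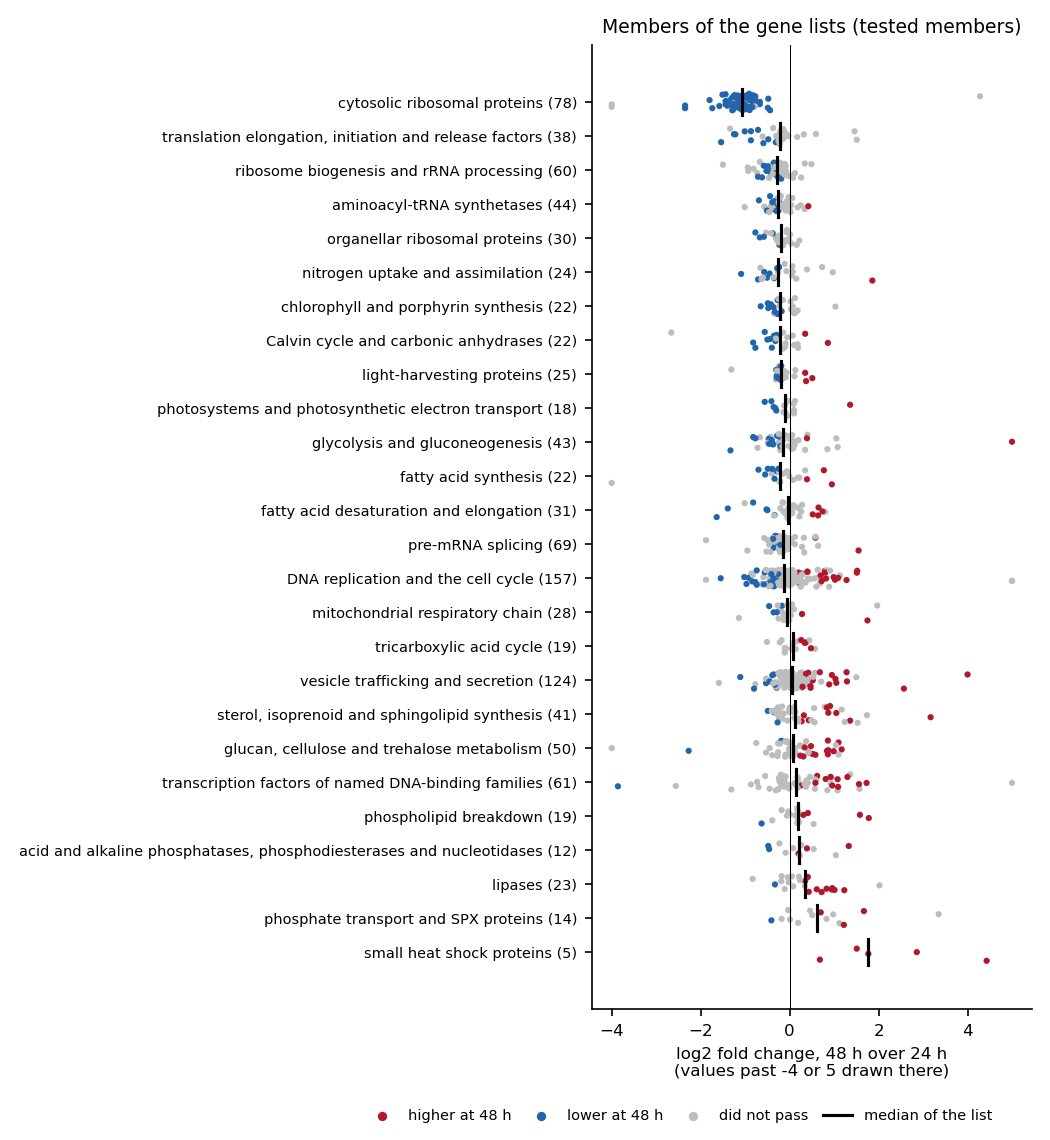
Log2 fold change of 48 h over 24 h for the tested members of 26 of the gene lists, with the number tested in brackets. Red members rose, blue members fell, grey ones did not pass, and the black bar is the median, which lies at -1.07 for cytosolic ribosomal proteins and at 1.77 for small heat shock proteins.

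Genes of the cytosolic ribosome fell together. Of 78 tested cytosolic ribosomal proteins 73 fell and 0 rose, at a median log2 fold change of -1.07 beside -0.01 over all genes, and 48 of the 73 fell by at least 2-fold. Their summed level was 13573, 12236 and 12880.2 CPM at 48 h, against 27843, 27867 and 26532 CPM at 24 h. The groups were far apart in this sum. Ribosomal protein L35-1 (NO16G01870), a protein of the large subunit, had 44.6, 34.9 and 42.1 CPM at 48 h, against 195, 223 and 200.1 CPM at 24 h, a log2 fold change of -2.35 ± 0.33 (SE, adjusted p = 4.5e-04). L10a-3 (NO23G00320) had 105, 97.3 and 107 CPM at 48 h, against 348, 365 and 324 CPM at 24 h (-1.74 ± 0.08, adjusted p = 3.1e-07). Both fell in every library of 48 h relative to every library of 24 h.

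The ribosomal gene L17-2 was set beside its neighbour by identifier. NO17G01860 (L17-2) had 117, 112 and 106 CPM at 48 h, against 572, 571 and 561 CPM at 24 h, a log2 fold change of -2.35 ± 0.46 (adjusted p = 0.0035). The gene with the next identifier, NO17G01870, had 239, 213 and 221 CPM at 48 h, against 119, 122 and 125 CPM at 24 h, and did not pass (adjusted p = 0.17). The sum of both was 336 ± 17.3 CPM at 48 h, against 689.7 ± 3.91 CPM at 24 h (SD, n = 3 each), so the pair was lower at 48 h by less than L17-2 alone. The pair was looked up after its values were seen.

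The 5 cytosolic ribosomal proteins that did not pass were P2B (NO06G04320), L15 (NO09G03120), S12 (NO17G00730), L21 (NO19G00660) and L32-1 (NO20G02070). Apart from L21, each varied widely among libraries of the same time, and L15, for example, had 6.64, 2.84 and 1.64 CPM at 48 h, against 584, 4.78 and 2.28 CPM at 24 h. By a narrower rule, 207 tested genes had fewer than 10 counts in 1 of the libraries of a time and 100 or more in another. Of these, 6 were called. L15 does not meet that rule, so it does not count all genes that vary widely within a time.

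The ribosomal proteins had been high before 48 h. The median level of the 78 genes, each taken as log2 CPM relative to its mean over the 15 libraries, lay at -0.652 to -0.604 in the 0 h libraries. It was 0.285 to 0.488 in those of 6 h, 0.405 to 0.681 in those of 12 h and 0.338 to 0.417 in those of 24 h. The 48 h libraries had -0.803 to -0.644. They thus lay below the 24 h ones and close to or below those of 0 h. Relative to 0 h, 69 of the 78 were higher and 3 lower at 12 h, where 32.1% of all tested genes were higher and 32.7% lower.

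Other parts of the translation machinery also held fallers. Of 38 translation factors 13 fell and 0 rose (median -0.22). Elongation factor 2 (NO02G03250), which moves the ribosome along the mRNA, had 1047, 1024 and 1097 CPM at 48 h, against 2214, 2089 and 2092 CPM at 24 h (-1.01 ± 0.06, adjusted p = 1.1e-06). Its second copy, NO03G02840, did not pass (-0.16, adjusted p = 0.056). Both together summed to 1285 ± 44.4 CPM at 48 h, against 2387 ± 73.4 CPM at 24 h (SD, n = 3 each). The 5 genes described as elongation factor 1-alpha, which carries aminoacyl-tRNA to the ribosome, summed to 1137 ± 34.3 CPM at 48 h, against 2504 ± 51.5 CPM at 24 h (SD, n = 3 each). Reads could be shared among these copies, so the sum is given. Initiation factor 5A-2 (NO04G01790) had 125, 109.8 and 114 CPM at 48 h, against 341, 351 and 323 CPM at 24 h (-1.54 ± 0.09, adjusted p = 6.1e-07).

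Of 60 ribosome biogenesis factors, rRNA processing included, 19 fell and 0 rose (median -0.28), and 12 fell without library a of 48 h. Of 44 aminoacyl-tRNA synthetases 16 fell and 1 rose (median -0.25), and of 30 organellar ribosomal proteins 7 fell and 0 rose (median -0.19), or 4 without library a of 24 h. Subunits of the Sec61 channel, through which new proteins enter the endoplasmic reticulum, fell too, by 0.80 for alpha (NO14G01770) and by 1.11 for beta (NO27G01380) on the log2 scale. In the deposited functional classes, Translation, ribosomal structure and biogenesis held 122 fallers and 4 risers among 302 tested genes. That is 40.4% fallers beside the 10.4% of all genes. By its name this class takes in ribosomal proteins, so it can hold genes already counted in the lists above. Nucleotide metabolism held 23 fallers (32.4%) and 1 riser among 71. Other classes held more risers than fallers. Risers were 21.3% of Lipid metabolism, 23.4% of Secondary metabolites and 17.9% of Signal transduction, beside 12.3% of all genes. Fallers in these classes were 8.42%, 8.51% and 5.58%.

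**Figure D3:**
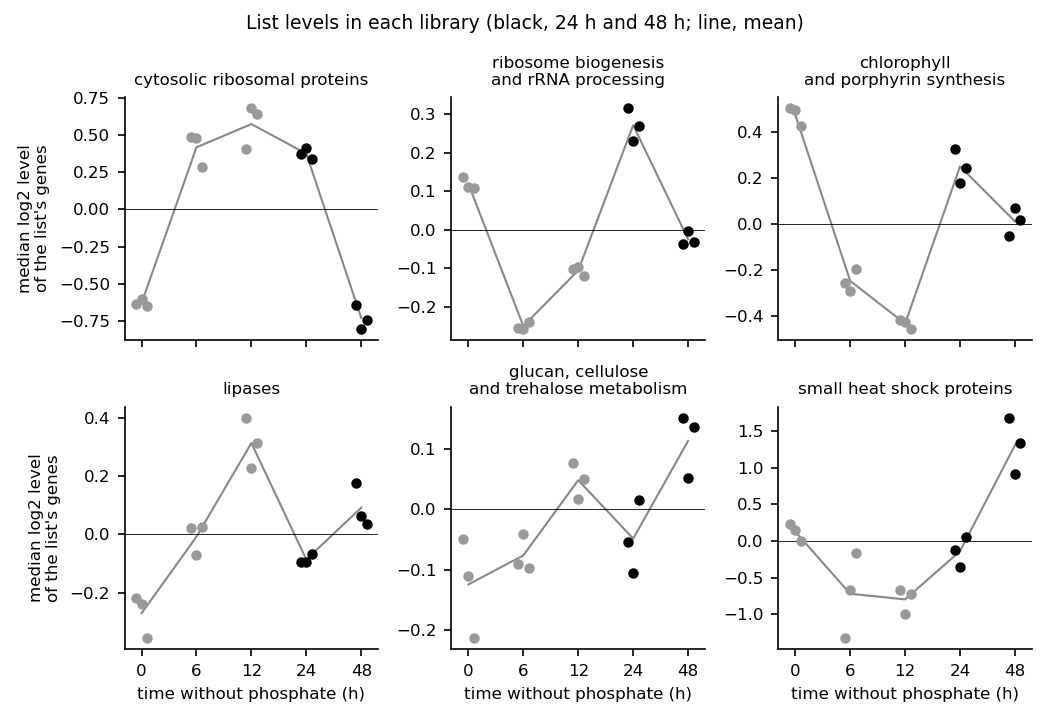
Median log2 level of the genes of 6 lists (vertical axes, which differ in range) in each of the 15 libraries at 0, 6, 12, 24 and 48 h (horizontal axis). Points are libraries, with 24 h and 48 h in black, and lines join the means. Cytosolic ribosomal proteins lie at -0.803 to -0.644 at 48 h, against 0.338 to 0.417 at 24 h.

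Phosphate transporters and SPX proteins rose in part. The list of phosphate transport and SPX proteins held 14 genes, of which 3 rose and 1 fell, at a median of 0.60. Phosphate transporter 1-4 (NO03G01310), of the family that plants use for uptake at the plasma membrane, had 406, 399 and 423 CPM at 48 h, against 103, 115 and 167 CPM at 24 h (1.67 ± 0.18, adjusted p = 6.4e-05). Its mean was 80.2, 65.0, 80.5, 129 and 409 CPM at 0, 6, 12, 24 and 48 h, so the level was highest at 48 h. Phosphate transporter 2-1 (NO24G00190), of the chloroplast type, had 729, 637 and 706 CPM at 48 h, against 289, 308 and 292 CPM at 24 h (1.22 ± 0.12, adjusted p = 3.5e-05). SPX domain-containing protein 1 (NO06G00660), in plants a sensor that restrains the starvation response, had 167, 152 and 161 CPM at 48 h, against 101, 98.7 and 97.2 CPM at 24 h (0.70 ± 0.06, adjusted p = 1.7e-05). The groups did not overlap for any of these 3 genes.

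A second gene described as SPX protein 1 (NO10G01110) had 876, 783 and 779 CPM at 48 h, against 549, 618 and 540.0 CPM at 24 h, and its adjusted p was 0.05, just above the threshold. It passed when only the 6 libraries were fitted (adjusted p = 0.016) and in DESeq2 (0.02). Phosphate transporter 1-12 (NO16G01940) had 1679, 1596 and 1787 CPM at 48 h, against 1465, 1373 and 1589 CPM at 24 h, and did not pass (0.19 ± 0.07, adjusted p = 0.084), though it did in DESeq2 (0.038). The PHO1-type exporters, which in plants release phosphate from cells, also did not pass, with log2 fold changes of 0.01 for PHO1 (NO17G01230), -0.03 for PHO1-2 (NO26G01790), -0.18 for PHO1 homolog 7 (NO05G03150) and 1.12 for PHO1 homolog 4 (NO11G00580).

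The SPX membrane protein NO04G02810 had 98.8, 47.1 and 82.4 CPM at 48 h, against 49.5, 56.1 and 60.6 CPM at 24 h, with library b of 48 h below all 3 of 24 h. It did not pass with all libraries (0.46, adjusted p = 0.17) and passed without that one (0.71, adjusted p = 0.0089). Its neighbour NO04G02820 had 67.5, 28.0 and 25.2 CPM at 48 h, against 18.5, 19.9 and 22.8 CPM at 24 h, and did not pass (0.98 ± 0.68, adjusted p = 0.35). Phosphate transporter 1-6 (NO15G02510) overlapped between the times (adjusted p = 0.46), and 1-13 (NO16G02030), with at most 6.56 CPM, did not pass either (adjusted p = 0.07), though it did in DESeq2 (0.025) and when only the 6 libraries were fitted (0.048). The 1 faller was the Pho88 homologue NO09G01750 (-0.41, adjusted p = 0.013). It did not pass without library b of 24 h (adjusted p = 0.057) or when only the 6 libraries were fitted (0.058).

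Phosphatases moved both ways. Of 12 acid and alkaline phosphatases, phosphodiesterases and nucleotidases 3 rose and 2 fell (median 0.22), and 1 rose without library c of 48 h. An alkaline phosphatase-like protein (NO16G02990), of the kind that frees phosphate from organic molecules, had 53.9, 23.7 and 58.4 CPM at 48 h, against 19.9, 17.2 and 17.0 CPM at 24 h (1.33 ± 0.27, adjusted p = 0.0044). It was above the threshold, at an adjusted p of 0.05, when only the 6 libraries were fitted. Purple acid phosphatase 7 (NO12G01720) fell by 0.46 and a lysosomal acid phosphatase (NO14G02670) by 0.48 on the log2 scale. The pyrophosphate-energised vacuolar proton pump (NO13G01250), which spends pyrophosphate in place of ATP, had 507, 428 and 488 CPM at 48 h, against 860.0, 792 and 862 CPM at 24 h (-0.82 ± 0.12, adjusted p = 6.8e-04).

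A pair of genes for the last step of sulfolipid synthesis rose. Of the 6 genes that make betaine lipids and sulfolipids 2 rose and 0 fell (median 0.14), and both risers are described as SQD2, the transferase that completes sulfoquinovosyl diacylglycerol. NO15G02830 had 140.2, 107 and 141 CPM at 48 h, against 51.3, 43.5 and 37.5 CPM at 24 h (1.55 ± 0.37, adjusted p = 0.01). Its mean was 5.83, 10.4, 83.7, 44.1 and 129.6 CPM over the 5 times, so it was highest at 48 h and next highest at 12 h. NO07G01720 had 243, 214 and 232 CPM at 48 h, against 157, 140.4 and 126 CPM at 24 h (0.70 ± 0.08, adjusted p = 1.1e-04). The other SQD2 genes overlapped between the times (NO01G02630, -0.09, and NO05G03760, -0.08), and the 4 together summed to 485 ± 69.0 CPM at 48 h, against 319 ± 48.0 CPM at 24 h (SD, n = 3 each). UDP-sulfoquinovose synthase (NO07G01150), the enzyme before SQD2, had a log2 fold change of 0.19 (adjusted p = 0.26), and betaine lipid synthase (NO05G01490) one of 0.09 (adjusted p = 0.45). The 1 tested gene of galactolipid synthesis did not pass.

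Enzymes that cut lipids rose more often than they fell. Among 19 phospholipid-degrading enzymes 4 rose and 1 fell (median 0.18), and of 23 lipases 10 rose and 1 fell (median 0.34). Phospholipase A1-Igamma1 (NO18G01550), a plastid enzyme in plants, had 213, 158 and 196 CPM at 48 h, against 70.1, 58.0 and 61.5 CPM at 24 h (1.58 ± 0.11, adjusted p = 2.4e-06). A gene described as acyl transferase, acyl hydrolase and lysophospholipase (NO16G00950) had 72.3, 61.1 and 72.3 CPM at 48 h, against 26.7, 18.7 and 14.5 CPM at 24 h (1.78 ± 0.20, adjusted p = 1.0e-04). Phospholipase A I (NO02G04810) fell by 0.63 on the log2 scale, and without library a of 24 h 2 of the 19 fell. Among the lipases, the class 3 enzyme NO17G02650 had 82.0, 41.6 and 67.8 CPM at 48 h, against 25.4, 28.0 and 28.0 CPM at 24 h (1.23 ± 0.23, adjusted p = 0.0025). Library b was the lowest of 48 h in this gene and in the lipases NO30G00360, NO30G00370 and NO12G03110, the last of which overlapped between the times. Without 1 library at a time 7 to 10 lipases rose. Among 12 phospholipid-making enzymes 1 rose and 1 fell (median 0.02), and 2 fell without library b of 48 h.

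**Figure D4:**
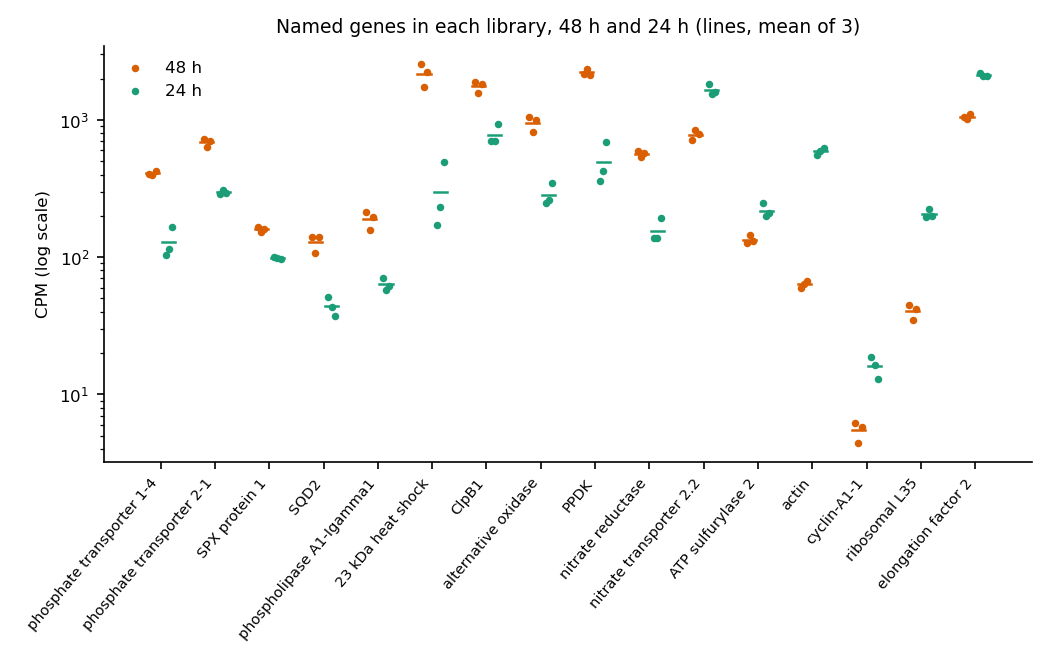
CPM (log scale) of 16 named genes in the 3 libraries of 48 h (left, orange) and the 3 of 24 h (right, green). Points are libraries and short lines their mean. The groups do not overlap in any of the 16 genes, and elongation factor 2, for example, averages 1056 CPM at 48 h, against 2132 CPM at 24 h.

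All 5 small heat shock proteins rose. These are holdases, known to bind unfolding proteins, and the list was drawn up after values were seen. The 3 genes described as 23.2 kDa heat shock protein lie next to each other by identifier and may share reads. They summed to 3017, 2085 and 2672 CPM at 48 h, against 199, 262 and 498 CPM at 24 h, a ratio of means of 8.10. The most counted, NO20G02150, had 2538, 1731 and 2222 CPM at 48 h, against 171, 233 and 492 CPM at 24 h (2.86 ± 0.39, adjusted p = 3.5e-04). Its mean was 350.3, 179, 152, 298 and 2164 CPM over the 5 times, with 48 h alone above 0 h. NO18G01280, a 16.6 kDa protein, had 59.9, 77.9 and 70.9 CPM at 48 h, against 21.4, 20.8 and 19.1 CPM at 24 h (1.77 ± 0.21, adjusted p = 1.3e-04).

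Other heat-associated genes differed among themselves. ClpB1 (NO20G02120), a disaggregase that works with small heat shock proteins in other species and is next to the 23.2 kDa genes by identifier, had 1895, 1564 and 1827 CPM at 48 h, against 701, 698 and 934 CPM at 24 h (1.18 ± 0.17, adjusted p = 6.1e-04). Heat shock factor HSF24 (NO22G01460), a transcription factor of the heat response, had 1479, 1464 and 1482 CPM at 48 h, against 489, 437 and 573 CPM at 24 h (1.56 ± 0.21, adjusted p = 3.1e-04). Its mean was 1393, 548, 331, 499.8 and 1475 CPM over the 5 times, so the level at 48 h was near that of 0 h. Heat stress factor A-4b (NO17G02330) rose by 0.62 (adjusted p = 0.002). Of all 103 heat shock proteins and chaperones, with small heat shock proteins such as NO20G02130 among them, 14 rose and 7 fell (median -0.04). The risers of this list thus overlap those of the paragraph before. Without library c of 24 h 3 fell, and 4 without library a of 24 h or c of 48 h. The share called in this list was 20.4%, beside 22.7% of all tested genes. The plastid 60 kDa chaperonin (NO11G02260) fell by 0.39 on the log2 scale.

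Some enzymes of carbon and electron flow rose. Pyruvate, phosphate dikinase, which makes phosphoenolpyruvate from pyruvate and splits off pyrophosphate, had 2174, 2361 and 2116 CPM at 48 h, against 361, 422 and 692 CPM at 24 h, in NO26G01010 (2.17 ± 0.26, adjusted p = 1.4e-04). The second copy, NO12G00860, had 875, 636 and 787 CPM at 48 h, against 204, 182 and 251 CPM at 24 h (1.85 ± 0.14, adjusted p = 4.7e-06). Together they were 4.24 times as high at 48 h. Ubiquinol oxidase 1a (NO02G00290), the alternative oxidase that bypasses the proton-pumping end of the respiratory chain, had 1052, 816 and 998 CPM at 48 h, against 247, 263 and 345 CPM at 24 h (1.75 ± 0.12, adjusted p = 2.3e-06). Its mean had lain between 274 and 396 CPM at 0, 6, 12 and 24 h. Ferredoxin-1 (NO09G00110), an electron carrier of the chloroplast, had 1412, 1062 and 1253 CPM at 48 h, against 211, 261 and 375 CPM at 24 h (2.14 ± 0.23, adjusted p = 6.6e-05). The cytochrome b6-f iron-sulfur subunit (NO05G02070) had 714, 544 and 612 CPM at 48 h, against 221, 233 and 276 CPM at 24 h (1.36 ± 0.16, adjusted p = 1.3e-04).

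A mitochondrial and a peroxisomal enzyme also rose. ETHE1 persulfide dioxygenase (NO03G04040), which oxidises sulfide-derived persulfides, had 3369, 2887 and 3209 CPM at 48 h, against 1269, 1359.5 and 1692 CPM at 24 h (1.13 ± 0.10, adjusted p = 1.5e-05). Peroxisomal monodehydroascorbate reductase 4 (NO28G01700), which regenerates ascorbate, had 361, 285 and 329 CPM at 48 h, against 116, 122 and 154 CPM at 24 h (1.31 ± 0.12, adjusted p = 1.4e-05). A nitric oxide dioxygenase (NO11G03360) rose by 1.38 ± 0.18 (adjusted p = 2.3e-04). Over the 91 antioxidant and redox enzymes as a whole 8 rose and 12 fell (median -0.04), or 7 fell without library a of 48 h. Together 22.0% of this list was called, beside 22.7% of all tested genes.

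Genes of photosynthesis lists fell more often than they rose, apart from carotenoid synthesis. Of 22 genes of chlorophyll and porphyrin synthesis 9 fell and 0 rose (median -0.22), or 1 rose without library c of 24 h. Among the fallers was uroporphyrinogen decarboxylase (NO03G04300), with 96.4, 108 and 110.3 CPM at 48 h, against 161, 162 and 169.8 CPM at 24 h (-0.65 ± 0.07, adjusted p = 7.9e-05). Of 22 genes of the Calvin cycle and carbonic anhydrases 9 fell and 2 rose (median -0.22). The 2 risers were carbonic anhydrases, and neither passed without library c of 48 h or without library b or c of 24 h. The fallers included phosphoribulokinase (NO13G02820), the enzyme that makes the carbon dioxide acceptor, with 1365, 1493 and 1469.7 CPM at 48 h, against 1854, 1774 and 1886 CPM at 24 h (-0.35, adjusted p = 0.002). Of 18 genes of photosystems and electron transport 5 fell and 1, the iron-sulfur subunit above, rose (median -0.10).

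Of 25 light-harvesting proteins 7 fell and 3 rose (median -0.19), and 3 fell without library a of 48 h, 4 without library a or b of 24 h. Their summed level was 86000.3, 99387 and 91663 CPM at 48 h, against 92590.0, 86481 and 88025 CPM at 24 h, and the groups overlapped. The most counted of them, fucoxanthin-chlorophyll protein E (NO25G00860), had 29796, 34403 and 32897 CPM at 48 h, against 26883, 24635 and 23749.5 CPM at 24 h, and rose by 0.37 ± 0.08 (adjusted p = 0.0064). Of 26 genes of carotenoid synthesis 1 rose and 0 fell (median -0.05), and that one, zeaxanthin epoxidase (NO16G00210), did not pass without library a or c of 48 h or without library a or b of 24 h (adjusted p between 0.073 and 0.11). Without library c of 24 h or library b of 48 h 1 gene fell.

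Glycolytic genes fell more often than they rose, and copies of glyceraldehyde-3-phosphate dehydrogenase moved in opposite directions. Of 43 genes of glycolysis and gluconeogenesis 11 fell and 2 rose (median -0.14), and 4 rose without library a of 24 h. A glyceraldehyde-3-phosphate dehydrogenase (NO09G03360) had 114, 135 and 126 CPM at 48 h, against 349, 312 and 285 CPM at 24 h (-1.33 ± 0.14, adjusted p = 5.5e-05). The cytosolic form NO27G00920 had 2977, 2813 and 2954 CPM at 48 h, against 2204, 2218 and 2269 CPM at 24 h (0.39 ± 0.05, adjusted p = 2.1e-04). Plastid phosphoglycerate kinase (NO06G04120) had 865, 1096 and 990.4 CPM at 48 h, against 1826, 1976 and 1413 CPM at 24 h (-0.82 ± 0.11, adjusted p = 4.0e-04). Of 19 genes of the tricarboxylic acid cycle 4 rose and 0 fell (median 0.08), or 2 rose without library b of 24 h or library c of 48 h. Of 28 genes of the respiratory chain 2 rose and 4 fell (median -0.07), or 2 fell without library a of 24 h or without library b or c of 48 h.

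The other glycolytic riser was an aldolase whose counts moved opposite to those of its neighbour. Fructose-bisphosphate aldolase 8 (NO01G03170) had 339, 397 and 373 CPM at 48 h, against 0.180, 0.0531 and 0.0456 CPM at 24 h, which is 5774, 8231 and 7059 counts against 4, 1 and 1. The gene with the next identifier, NO01G03180, had 35.4, 37.2 and 43.6 CPM at 48 h, against 471, 417 and 438 CPM at 24 h. Both passed the test (adjusted p = 0.0033 and 0.015), in opposite directions. Their sum was 375, 434 and 417 CPM at 48 h, against 471, 417 and 438 CPM at 24 h, and the groups overlapped. At 0 h the aldolase alone had 0.175, 630.4 and 644 CPM in the 3 libraries, while the sum was 676, 685 and 692 CPM. The neighbour was looked up after these values were seen, and how the counting assigned reads between the 2 identifiers is not given in the sources used here, so no change of aldolase level is read from its fold change. All 5 genes of cytosolic aldolase together had 3849 ± 213 CPM at 48 h, against 4395 ± 190.1 CPM at 24 h (SD, n = 3 each). This sum includes NO01G03170 and leaves out NO01G03180, so no change of total aldolase is read from it either. Among the other copies, NO12G03140 fell by 0.46 on the log2 scale (adjusted p = 0.0015) and the rest did not pass.

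Genes of nitrogen uptake and assimilation fell more often than they rose. Of 24 genes 9 fell, 1 nitrate reductase rose and 14 did not pass (median -0.25), and 2 rose without library a of 24 h. High-affinity nitrate transporter 2.2 (NO14G02450), which imports nitrate, had 713, 844 and 783 CPM at 48 h, against 1841, 1556 and 1599 CPM at 24 h (-1.09 ± 0.12, adjusted p = 7.4e-05). Cytosolic glutamine synthetase (NO07G03230), which fixes ammonium into glutamine, had 1631, 1742 and 1754 CPM at 48 h, against 2968, 2620.2 and 2810.4 CPM at 24 h (-0.71 ± 0.06, adjusted p = 1.5e-05). Glutamate synthase (NO08G04050) fell by 0.35 and NADP-specific glutamate dehydrogenase (NO16G00690) by 0.51 on the log2 scale.

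The nitrate reductase NO09G02340 had 591, 533 and 571 CPM at 48 h, against 137, 139 and 192 CPM at 24 h (1.86 ± 0.12, adjusted p = 1.6e-06). Its mean at 0 h was 150.3 CPM. The nitrate reductase NO14G02460, next to the nitrate transporter by identifier, had 811, 927 and 864 CPM at 48 h, against 1415, 1217 and 1238 CPM at 24 h (-0.57, adjusted p = 0.0052). The 5 genes of that description summed to 2084, 2114 and 2124 CPM at 48 h, against 2345, 2121 and 2196 CPM at 24 h. The sums overlapped, while the share of single copies in them shifted. The ketol-acid reductoisomerase of branched-chain amino acid synthesis (NO15G02780) had 416, 373 and 392 CPM at 48 h, against 994, 934 and 976 CPM at 24 h (-1.30 ± 0.07, adjusted p = 3.5e-07).

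Sulfur assimilation did not move as one, with 22.2% of the list called beside 22.7% of all tested genes. Of 27 genes 4 rose and 2 fell (median 0.09). The 2 fallers act in the steps from sulfate to sulfite. APS reductase (NO12G02400) had 0.646, 1.64 and 3.75 CPM at 48 h, against 30.8, 15.3 and 13.7 CPM at 24 h (-3.30 ± 0.52, adjusted p = 9.7e-04), and its log2 fold change was -4.11 without library c of 48 h. ATP sulfurylase 2 (NO14G02380), the enzyme before it, had 127, 145 and 131 CPM at 48 h, against 248, 198 and 209 CPM at 24 h (-0.70 ± 0.09, adjusted p = 2.1e-04). The 4 risers were cystathionine gamma-synthase (NO19G02600, 0.68), a cysteine synthase (NO07G03640, 0.33) and a serine acetyltransferase (NO17G01630, 0.27), which build cysteine and methionine, and sulfite oxidase (NO09G03800, 0.13). S-adenosylmethionine synthase (NO08G00670), which makes the methyl donor of the cell, had 189, 133 and 132 CPM at 48 h, against 342, 370.2 and 697 CPM at 24 h (-1.63 ± 0.27, adjusted p = 0.0012).

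Genes for making fatty acids fell more often than they rose. Of 22 genes of fatty acid synthesis 7 fell and 3 rose (median -0.22), or 4 fell without library a or without library c of 48 h, and 1 rose without library a of 24 h. Acyl carrier protein (NO30G00840), on which the chain is built, had 983, 1032 and 1042 CPM at 48 h, against 1570.0, 1717 and 1675 CPM at 24 h (-0.70 ± 0.09, adjusted p = 2.3e-04). A 3-oxoacyl-ACP synthase (NO01G02200) had 2064, 1254 and 1779.7 CPM at 48 h, against 1035, 901 and 1064 CPM at 24 h (0.77 ± 0.15, adjusted p = 0.0039). The direction thus differed between members of the same pathway.

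Of 31 genes of desaturation and elongation 6 fell and 4 rose (median -0.03), and 2 fell without library a of 48 h. The delta-6 fatty acid elongase (NO02G04610), named for the route to the long polyunsaturated fatty acids of this alga, had 179, 199 and 183 CPM at 48 h, against 329, 328 and 332 CPM at 24 h (-0.82 ± 0.05, adjusted p = 1.5e-06). The Delta(12) desaturases NO11G02480 and NO14G02790, which may share reads, summed to 83.5, 115 and 145 CPM at 48 h, against 421, 388 and 189.8 CPM at 24 h. Each passed, but neither without library a of 48 h (adjusted p = 0.074 and 0.051). NO11G02480 also did not pass without library a of 24 h (0.086) or library c of 48 h (0.065), and neither passed when only the 6 libraries were fitted (0.066 and 0.054).

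Genes of oil synthesis moved both ways, with 22.6% of the list called beside 22.7% of all tested genes. Of 31 genes for triacylglycerol or lipid droplets 4 rose and 3 fell (median -0.06), and 1 rose without library b of 24 h or without library a of 48 h, 2 without library c of either time. Diacylglycerol acyltransferase 1B (NO19G00260), which adds the last acyl chain of oil, had 123, 115 and 117 CPM at 48 h, against 89.6, 84.7 and 83.4 CPM at 24 h (0.46, adjusted p = 0.0012). Diacylglycerol acyltransferase 1C (NO14G03060) had 6.46, 2.99 and 4.76 CPM at 48 h, against 2.70, 1.38 and 1.73 CPM at 24 h (1.29, adjusted p = 0.015). A gene for acyltransferase 2D (NO07G01760) had 16.9, 18.1 and 17.9 CPM at 48 h, against 8.18, 9.45 and 14.1 CPM at 24 h (0.74, adjusted p = 0.027). Neither of these 2 passed when only the 6 libraries were fitted (0.072 and 0.061). NO14G03060 also did not pass without library a of 48 h or library b or c of 24 h, nor NO07G01760 without any 1 library of 48 h or without library a or b of 24 h. Another gene for acyltransferase 2D (NO01G00990) had 51.4, 30.5 and 40.5 CPM at 48 h, against 70.5, 149.9 and 160.2 CPM at 24 h. It passed narrowly (adjusted p = 0.049) and did not pass without any 1 of libraries b and c of 24 h or a, b and c of 48 h (0.083 to 0.13). A further gene for acyltransferase 2D (NO10G04120) had 105, 121 and 117 CPM at 48 h, against 156, 139 and 157 CPM at 24 h (-0.40, adjusted p = 0.0018). A plastid glycerol-3-phosphate dehydrogenase (NO17G02030) also fell, by 0.49 on the log2 scale (adjusted p = 0.0013). The 10 genes of the DGAT2 family together had 1174 ± 29.2 CPM at 48 h, against 1357 ± 47.5 CPM at 24 h (SD, n = 3 each). Of 29 genes of beta-oxidation 5 rose and 2 fell (median -0.08), and 3 rose without any 1 library of 24 h, while 1 fell without library b or c of 48 h or library a or b of 24 h.

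Sterol and isoprenoid genes rose more often than they fell. Of 41 genes of sterol, isoprenoid and sphingolipid synthesis 9 rose and 3 fell (median 0.11), and 1 fell without library a of 48 h. Squalene epoxidase 3 (NO01G00760), the first oxygen-requiring enzyme of sterol synthesis, had 349, 316 and 327 CPM at 48 h, against 126, 114 and 147 CPM at 24 h (1.36 ± 0.10, adjusted p = 3.6e-06). Its mean was 276, 155, 121, 129 and 331 CPM over the 5 times, lowest from 12 to 24 h. The largest called rise of the list was Delta(14)-sterol reductase (NO07G01540), with 27.7, 22.3 and 1.53 CPM at 48 h, against 2.02, 2.23 and 1.46 CPM at 24 h (3.17 ± 0.89, adjusted p = 0.024). The groups overlapped, and it did not pass without any 1 library of 24 h or without library a or b of 48 h (0.051 to 0.08). A sterol isomerase outside the list (NO07G03840) had 29.1, 25.7 and 26.0 CPM at 48 h, against 2.16, 3.56 and 7.11 CPM at 24 h (2.65 ± 0.45, adjusted p = 0.0015). The beta subunit of protein farnesyltransferase (NO06G00620), which adds a lipid anchor to proteins, rose by 1.05 ± 0.08 (adjusted p = 4.2e-06).

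Cell cycle genes moved in both directions, with 24.2% of the list called beside 22.7% of all tested genes. Of the 157 replication and cell cycle genes 16 rose and 22 fell (median -0.13), and 11 fell without library a of 48 h, 13 without library a of 24 h and 14 without library b of 24 h or library c of 48 h. Cyclin-A1-1 (NO13G01690), a partner of cyclin-dependent kinases, had 6.17, 4.44 and 5.76 CPM at 48 h, against 18.7, 16.4 and 12.9 CPM at 24 h (-1.55 ± 0.23, adjusted p = 6.8e-04). Its mean was 0.929, 61.9, 48.2, 16.0 and 5.46 CPM over the 5 times. The sliding clamp PCNA (NO06G02560) fell by 0.74 and the catalytic subunit of DNA polymerase epsilon (NO09G01170) by 0.77 on the log2 scale. The mitotic kinase Nek2 (NO17G02100) had 123, 58.2 and 102 CPM at 48 h, against 29.1, 30.0 and 40.3 CPM at 24 h (1.51 ± 0.22, adjusted p = 6.8e-04). Of 12 histones 0 rose and 0 fell (median 0.09), and 2 rose without library b of 48 h.

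One actin gene fell to a low level. NO03G02590 had 60.0, 63.6 and 67.4 CPM at 48 h, against 557, 596 and 626 CPM at 24 h (-3.22 ± 0.18, adjusted p = 6.1e-07). Its mean was 377, 559, 1712, 593 and 63.7 CPM over the 5 times. The actin gene NO03G02610 nearby had 499, 12.9 and 12.1 CPM at 48 h, against 17.7, 402 and 249 CPM at 24 h, so it differed widely between libraries of the same time and did not pass. A further actin gene, NO09G00680, rose, with 178, 107 and 145 CPM at 48 h, against 93.1, 83.0 and 98.2 CPM at 24 h (0.65 ± 0.16, adjusted p = 0.012). Actin-7 (NO05G01980) did not pass (-0.20, adjusted p = 0.11). The 4 actin genes summed to 756, 203 and 243 CPM at 48 h, against 692, 1102 and 994 CPM at 24 h, with library a of 48 h inside the range of 24 h, so for total actin the groups overlapped. Of 81 genes of tubulin, actin and motors 10 rose and 4 fell (median 0.03), and 6 rose without library a of either time.

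Of the transcription factors that rose, 5 are described as MYB3R. Of 61 factors of named DNA-binding families 11 rose and 1 fell (median 0.14), and the faller did not pass without library a of 48 h, while 2 fell without library b of 48 h or library c of 24 h. MYB3R proteins act on genes of cell division in plants. MYB3R-1 (NO21G02390) had 240.4, 120.3 and 197 CPM at 48 h, against 67.1, 78.3 and 81.4 CPM at 24 h (1.30 ± 0.21, adjusted p = 0.0012). MYB3R-3 (NO29G01790) had 194, 99.8 and 165 CPM at 48 h, against 65.9, 69.3 and 82.1 CPM at 24 h (1.08 ± 0.21, adjusted p = 0.0034). Library b was the lowest of 48 h in both, and in MYB3R-2 (NO28G00530, 0.96), both MYB3R-5 genes (NO23G00850, 0.58, and NO27G01050, 1.73) and MYB119 (NO18G02390, 1.09). NO27G01050 did not pass without library a of 48 h (adjusted p = 0.073) or without library a or b of 24 h (0.066 and 0.057), or when only the 6 libraries were fitted (0.065).

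The same order of libraries was seen in several cell-surface enzymes. Of 50 genes of glucan, cellulose and trehalose metabolism 14 rose and 2 fell (median 0.06), and 1 fell without library a or b of 48 h or without any 1 library of 24 h. A cellulose synthase (NO07G01270) had 130.1, 64.9 and 109.5 CPM at 48 h, against 46.4, 40.3 and 48.6 CPM at 24 h (1.17 ± 0.21, adjusted p = 0.0025). Exoglucanase 3 (NO23G00130), which trims glucan chains, had 572, 286 and 457 CPM at 48 h, against 187, 217 and 257 CPM at 24 h (0.99, adjusted p = 0.0058). Library b was the lowest of 48 h in both and above all of 24 h. The glucosidase GCS1 (NO12G02060), which trims N-glycans in the endoplasmic reticulum, had 22.1, 28.5 and 24.2 CPM at 48 h, against 119.6, 113 and 129 CPM at 24 h (-2.27 ± 0.52, adjusted p = 0.0088).

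The remaining lists held calls in both directions. The share called was 22.6% for trafficking, 16.3% for proteasome and ubiquitin, 18.6% for autophagy and 15.9% for splicing, beside 22.7% of all tested genes. Of 124 genes of vesicle trafficking and secretion 20 rose and 8 fell (median 0.05), or 13 rose without library a of 24 h, 4 fell without library a of 48 h and 5 fell without library b or c of 24 h. The small GTPase RIC1 (NO24G01750), of a family that steers vesicles, had 37.7, 38.5 and 42.8 CPM at 48 h, against 8.41, 5.74 and 5.83 CPM at 24 h (2.57 ± 0.16, adjusted p = 1.5e-06). Of 190 genes for the proteasome or for ubiquitin conjugation 11 rose and 20 fell (median -0.02), or 7 rose without library a of 24 h or library c of 48 h, and 11 fell without library a of either time and 12 without library b of 24 h. The ubiquitin ligase XB3 (NO13G00830) had 17.9, 21.2 and 16.8 CPM at 48 h, against 129, 105 and 84.8 CPM at 24 h (-2.51 ± 0.14, adjusted p = 6.3e-07). Of 43 genes of autophagy and vacuolar proteases 5 rose and 3 fell, at a median of 0.00, and leaving out any 1 library gave 1 to 4 rises and 0 to 1 falls. Of 69 splicing genes 2 rose and 9 fell (median -0.14), and 2 fell without library a of 48 h and 3 without library a of 24 h or library c of 48 h. Rises and falls numbered 1 and 1 of 5 polyphosphate enzymes and pyrophosphatases, 2 and 1 of 20 nucleotide sugar transporters, 2 and 2 of 18 amino acid transporters, 3 and 1 of 13 proton pumps, and 1 and 1 of 13 light receptors and clock-type factors. In each of these 5 lists at least 1 call was lost without library a of 24 h.

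Among the largest changes outside the lists, NUM1 (NO17G02380), described after a yeast protein of nuclear migration, had 47.9, 58.4 and 52.2 CPM at 48 h, against 6.16, 5.95 and 6.29 CPM at 24 h (3.11 ± 0.19, adjusted p = 1.2e-06). Its mean was 53.9 CPM at 0 h, so 48 h was near the start of the course. An erythromycin esterase (NO02G05820) had 77.3, 54.9 and 73.0 CPM at 48 h, against 8.36, 7.28 and 11.9 CPM at 24 h (2.90 ± 0.22, adjusted p = 4.1e-06). A tRNA methyltransferase (NO19G02010) had 3975, 3195 and 3756 CPM at 48 h, against 974, 954 and 1391 CPM at 24 h (1.72 ± 0.14, adjusted p = 6.2e-06). The ABC transporter F family member 3 (NO06G03380), of a family tied to translation in yeast, had 227, 228 and 225 CPM at 48 h, against 983, 864 and 717 CPM at 24 h (-1.91 ± 0.13, adjusted p = 1.7e-06). Adenosine kinase 1 (NO22G00410) fell by 1.81 and a translationally controlled tumor protein homologue (NO18G01960) by 1.56 on the log2 scale.

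Genes without a description held some of the strongest rises. NO04G02610 and NO03G05560 were chosen after their values were seen, and NO23G00020 was among the most abundant risers of at least 2-fold. NO04G02610 had 874, 711 and 762 CPM at 48 h, against 65.2, 44.1 and 74.0 CPM at 24 h (3.68 ± 0.30, adjusted p = 6.2e-06). NO03G05560 had 86.2, 87.5 and 79.9 CPM at 48 h, against 3.24, 4.51 and 4.60 CPM at 24 h (4.36 ± 0.51, adjusted p = 1.2e-04). NO23G00020 had 10147, 4879.6 and 8527 CPM at 48 h, against 2756, 3144 and 3905 CPM at 24 h (1.26 ± 0.22, adjusted p = 0.0021). The groups did not overlap in any of these genes, and library b was again the lowest of 48 h in NO23G00020. Its mean was 217, 372, 4203, 3268 and 7851 CPM over the 5 times.

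**Figure D5:**
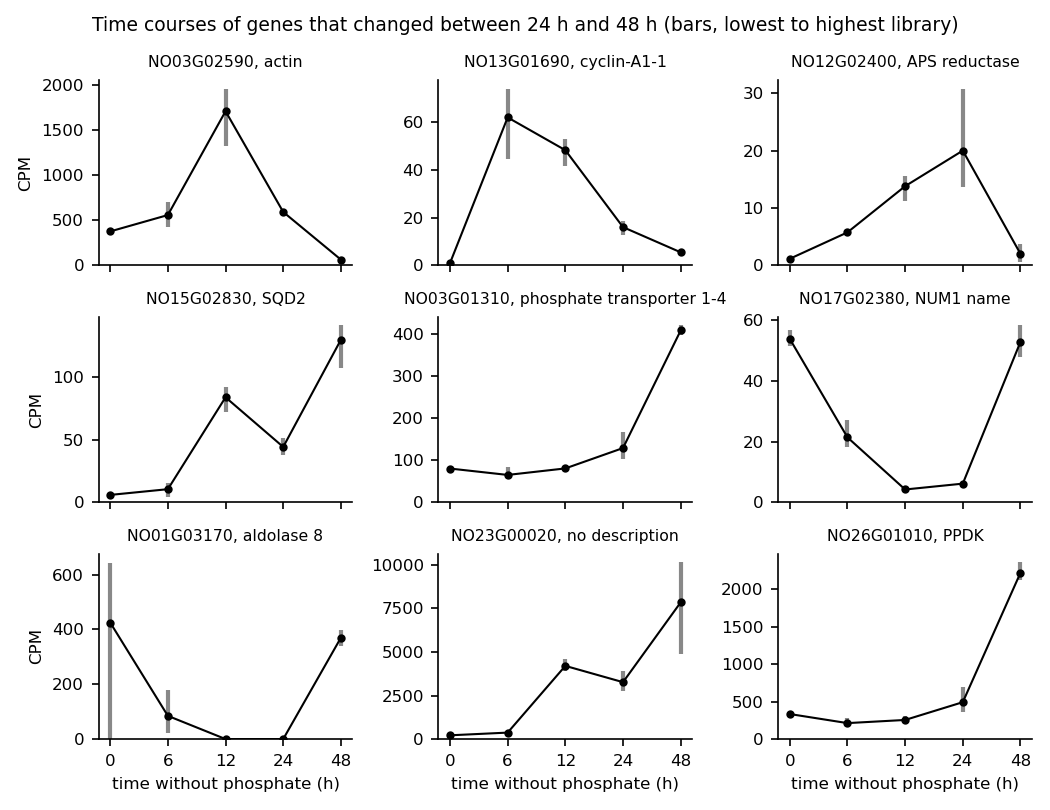
Mean CPM of 9 genes (vertical axes, which differ in range) at 0, 6, 12, 24 and 48 h without phosphate (horizontal axis). Points are means of 3 libraries and grey bars span the lowest to the highest library. Actin NO03G02590 peaks at 12 h with 1712 CPM and reaches 63.7 CPM at 48 h, pyruvate, phosphate dikinase stays at or below 492 CPM until 24 h and reaches 2217 CPM at 48 h, and the aldolase panel shows the gene whose counts move opposite to those of its neighbour.

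The late step was set beside the early steps that share no library with it. At 12 h against 0 h, 64.8% of the tested genes were called, and at 6 h against 0 h 50.3%, beside 22.7% for 48 h against 24 h. Of the 1151 genes that rose late, 579 (50.3%) were also higher at 12 h than at 0 h and 367 (31.9%) were lower, where 32.1% and 32.7% of all tested genes were. The 579 were 19.4% of the genes higher at 12 h. The median change at 12 h was 0.36 for the late risers and -0.04 for all genes. Of the 969 genes that fell late, 374 (38.6%) were higher and 411 (42.4%) lower at 12 h, with a median of -0.05. At 6 h, 342 of the late risers (29.7%) were higher and 282 (24.5%) lower. Of the late fallers 362 (37.4%) were higher and 342 (35.3%) lower at 6 h, where 24.7% and 25.7% of all tested genes were. Across all tested genes the late change had a Pearson correlation of 0.09 with the change at 12 h and of 0.01 with that at 6 h, given as a description, since genes are not independent replicates.

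The comparisons of 24 h and of 48 h with 0 h share libraries with the late step and are given side by side only. At 24 h 46.0% of genes were called against 0 h (25.2% higher and 20.8% lower). At 48 h 49.3% were called (26.3% higher and 23.0% lower). Of the 78 cytosolic ribosomal proteins 71 were higher at 24 h than at 0 h, at a median of 0.99, while at 48 h 3 were higher and 20 lower than at 0 h, at a median of -0.10. The 14 genes of phosphate transport and SPX proteins held 5 higher and 0 lower at 24 h (median 0.45), and 9 higher and 0 lower at 48 h (median 0.83).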

How the data were processed

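RNA sequencing of total RNA gave 15 libraries, 3 at each of 5 times. The deposited table holds estimated counts per gene and library, which the authors wrote as whole numbers and did not scale to depth, and FPKM values that the authors scaled to gene length and depth, per the file headers. Reads were aligned with HISAT2, per the submitters' processing notes. Not given in the sources used here are its version, the counting tool, the strand setting, the build and the annotation. FPKM values were not used for any test. Groups came from the time in the labels.

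Counts were tested with edgeR 4.0.16 (limma 3.58.1, R 4.3.3): filterByExpr, which removed 1113 of 10434 genes, TMM factors, 5 group means over all 15 libraries, the quasi-likelihood F-test and Benjamini-Hochberg adjustment over the 9321 tested genes, with calls at an adjusted p under 0.05. The table holds 10316 annotated and 118 newly assembled genes. The SE of a log2 fold change is its size divided by the square root of F. CPM used the effective library size. The script was tested on simulated data. Alternatives were DESeq2 1.42.0, other size factors, other filters, a stricter threshold, the 6 libraries alone, a replicate block and each library left out. Tables and figures were made with Python 3.11.15, pandas 2.3.3, numpy 2.4.6 and matplotlib 3.10.9.

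Samples of the same letter did not deviate together (correlations 0.02, -0.016 and -0.019 for a, b and c), so the letters were not used as pairs. Among the 3 libraries of 48 h and among the 3 of 24 h, counts of no 2 agreed within sampling noise.

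The members and the gene lists were chosen with earlier results of these data known. The lists were matched to the deposited descriptions. The patterns of 15 lists were corrected by reading gene names, and betaine lipid synthase was added by its identifier. The lists of translation factors and of small heat shock proteins were added after values were seen. Named genes were picked by rule. The 15 largest rises and falls were called genes with a description, a mean log2 CPM of at least 3 over the 6 libraries and no overlap between the times. The 6 most abundant called risers and fallers of at least 2-fold were taken whether or not they met these conditions. So were the 2 largest called rises and falls of each list. Every member of the phosphate transport and the sulfolipid lists was named, called or not. Others were chosen after their values were seen. Among them were the neighbours and copies of named genes, the MYB3R genes, the Sec61 subunits and single enzymes of nitrogen, carbon and replication. The genes without a description were too, apart from NO23G00020, which was among the most abundant risers.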

Additional observations from a re-analysis of the deposited data

How the results depend on the processing

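Beside 1151 higher and 969 lower genes at 48 h against 24 h, the adjusted p of 0.01 gave 655 and 483, and the added condition of a 2-fold change 323 and 116. Leaving out 1 library at a time gave 833 to 1284 higher and 657 to 1108 lower, 2798 to 3007 higher and 2853 to 3137 lower for 12 h against 0 h, and 72 to 74 lower cytosolic ribosomal proteins. A fit with a replicate block, which pairs the letters, gave 1040 and 859. DESeq2 gave 1389 and 1174. The 6 libraries alone gave 932 and 950, of which 805 and 745 were shared with the fit of all 15. Without the 207 genes that switch within a time, an alternative chosen after seeing the data, 1150 and 964 were called. Among the named genes, 31 lost their call in at least 1 of the 7 other fits and 40 with 1 library left out, 3 gained one in other fits, and no call was reversed. The cause was not tested. Depth limits genes under about 10 counts, where a fold change rests on few reads.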
